A study of Mus musculus with 8 samples.

Results

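Pcdha3 encodes a clustered protocadherin, a transmembrane adhesion protein of the cadherin superfamily. It was followed here through its single probe, 929017, which the files pair with the RefSeq transcript NM_138662.1. This is 1 probe of the 33012 on the array and 1 of 316 that could be given a gene symbol. The probe was selected on its log2 signal in mutant against control pools, which was already known, so those values are given as a description, without a p-value for this gene.

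Wt1 is a zinc finger transcription factor needed for kidney formation. The study measured RNA from the kidney-forming region of mouse embryos, some of which carried a mutant Wt1 allele. It compared 4 pools labelled as Wt1 knockout with 4 control pools, named wild type in the titles but Wt1 heterozygote in the genotype field, so whether they carry the mutant allele is unresolved. All embryos were of a mixed C57Bl6/DBA background and were collected at E10.25, with 8 to 13 tail somites. Each sample was a pool of 16 microdissected kidney anlagen of a single genotype, hybridised as digoxigenin-labelled cRNA to an Applied Biosystems array read in 1 colour. Whether pools represent separate litters is not labelled, and the spread between pools may be partly technical. In such bulk tissue, a change in the number of expressing cells and a change in RNA per cell cannot be told apart. No probe was matched to Wt1, nor to any other of the 14 metanephric mesenchyme genes that were looked up, so neither the genotype labels nor the dissected tissue were checked by markers.

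Clustered protocadherins are cell-surface proteins best known from neurons. In mammals they are encoded by neighbouring alpha, beta and gamma gene clusters, and different neurons choose different members, which bind like with like and help a cell tell its own branches from those of others. An alpha transcript joins a variable exon of its own, which encodes the extracellular cadherin repeats, to constant exons that all alpha members share. In neurons, promoter choice in the alpha cluster depends on the insulator protein CTCF and on cohesin.

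The RefSeq table of assembly GRCm38.p6 lists 14 alpha genes, with Pcdha3 between Pcdha2 and Pcdha4. All 13 other alpha gene models overlap that of Pcdha3. The probe sequence is not given in the sources used here, so it is not known whether the probe reads the variable exon of Pcdha3 or the part shared with the rest of the alpha cluster. The signal is therefore named by its transcript, and a contribution of other alpha transcripts was not tested.

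Pcdha3 was detected in every pool. Detection here means a signal-to-noise score of at least 3 and a quality flag under 5000. The signal-to-noise score of Pcdha3 was 11.5, 21.25, 25.51 and 13.87 in mutant pools 1 to 4, against 12.48, 13.04, 11.23 and 9.44 in control pools 1 to 4. Its flag was 0 on all 8 arrays. Mutant pools 2 and 3 had the highest scores, while mutant pool 1 lay within the range of the controls, so the scores of the groups overlapped.

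The deposited signal, an intensity on a linear scale that is not scaled between arrays, was 2479, 4127, 3990.2 and 4106 in mutant pools 1 to 4. It was 3241, 1291, 3699 and 2459 in control pools 1 to 4. On this scale the groups overlapped as well, since mutant pool 1 was below control pools 1 and 3. The arrays differed in overall brightness, the median signal over all probes being lowest in control pool 2 (681.6) and highest in control pool 1 (2118.2), so unscaled signals are not comparable between arrays.

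The deposited array-normalized signal separated the groups. Its scaling factor, the signal divided by this value, was not constant within an array. Over probes with an array-normalized signal of at least 10, the CV of the factor was 8.29% in mutant pool 2 and 6.08% in control pool 2, and 0.166% to 2.56% on the other arrays. For Pcdha3 the factor in mutant pool 2 was 1112, against a median of 943.6 on that array. The array-normalized signal of Pcdha3 was 3.39, 3.71, 4.63 and 3.4 in mutant pools 1 to 4, against 1.6, 1.85, 2.68 and 2.41 in control pools 1 to 4. The means were 3.78 ± 0.58 in mutants and 2.14 ± 0.50 in controls (SD, n = 4 each), a ratio of 1.77. The lowest mutant pool was above the highest control pool.

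On the scale used for the rest of this description, log2 of the deposited signal after quantile normalization over all probes, Pcdha3 measured 11.79, 12.03, 12.28 and 11.84 in mutant pools 1 to 4. It measured 10.71, 11.04, 11.45 and 11.33 in control pools 1 to 4. Every mutant pool again lay above every control pool, a pattern that the probe was chosen for and that 3% of the 17594 tested probes share in this direction. Tested probes were those detected in 3 or more pools of either genotype.

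**Figure D1:**
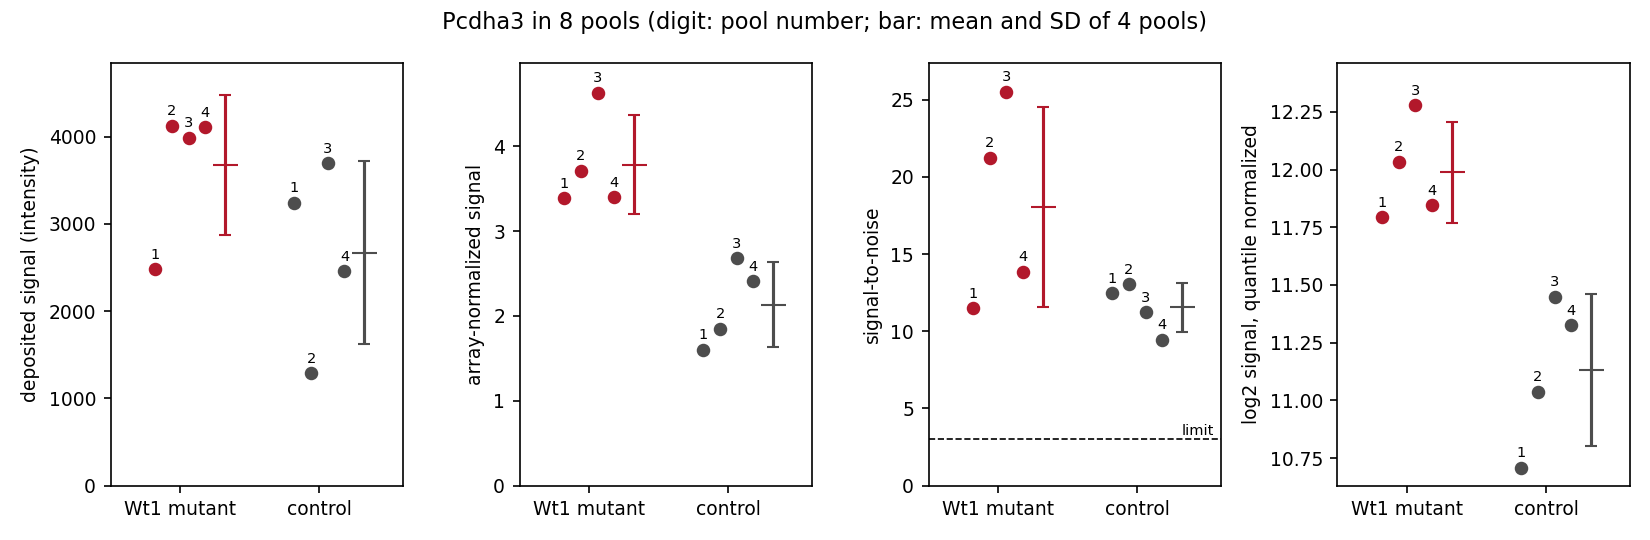
Pcdha3 in the 4 Wt1 mutant pools (red, left) and the 4 control pools (grey, right), on 4 scales from left to right: deposited signal (intensity), array-normalized signal, signal-to-noise with its limit of 3 as a dashed line, and log2 quantile-normalized signal. Points are pools with their numbers and bars are means with SD; the groups overlap in deposited signal and in signal-to-noise and are apart on both normalized scales, and the log2 axis does not start at 0.

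The log2 signal averaged 11.99 ± 0.22 in mutants and 11.13 ± 0.33 in controls (SD, n = 4 each). The difference, mutant minus control, was 0.86 (SE 0.19 from the linear model over all tested probes), which is a 1.81-fold higher signal in mutants. Its size exceeded the pooled SD between pools of a genotype, 0.28. Over all 17594 tested probes the median difference was -0.06, and 380, or 2.16%, had a higher difference than Pcdha3. Of the other 176 tested probes with a symbol, 4 did.

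In descending order the log2 signals ran from mutant pool 3 through mutant pools 2, 4 and 1 to control pools 3, 4, 2 and 1. The widest step between neighbours, 0.35, was the one between mutant pool 1 and control pool 3. The step from control pool 2 down to control pool 1 was nearly as wide, at 0.33, and that from control pool 4 to control pool 2 was 0.29. Among mutants, pools 3 and 2 differed by 0.25, pools 2 and 4 by 0.19 and pools 4 and 1 by 0.05. Control pools 3 and 4 differed by 0.12. The pooled SD of 0.28 is a spread of single pools, so it does not tell which neighbours differ.

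The closest neighbours, mutant pools 4 and 1, are the pair whose array names share a number. The labels do not say whether they are repeat arrays of the same RNA, and their array names carry different dates. Their Pearson correlation over all probes was 0.9765, hardly above the 0.9762 of mutant pools 1 and 2. Control pools 1 and 2 (0.9785) and control pools 3 and 4 (0.9768) correlated more closely. Over all tested probes, mutant pools 4 and 1 had the lowest median absolute difference among mutant pairs. It was 0.126 on the log2 scale, against 0.146 to 0.170 for the others. With both averaged into 1 sample, the Pcdha3 difference was 0.91 (SE 0.21).

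The controls were uneven. On the first principal component of the tested probes, control pools 1 and 2 lay at 42.2 and 67.5 and the remaining 6 arrays between -21.5 and -13.1. They were also the 2 lowest pools for Pcdha3, with a mean log2 signal of 10.87, against 11.39 in control pools 3 and 4. Without control pools 1 and 2 the Pcdha3 difference was 0.59 (SE 0.15), and without control pools 3 and 4 it was 1.13 (SE 0.18). The part of these uneven controls in the difference was not tested beyond these values. The SD of Pcdha3 among controls exceeded that of 58.2% of tested probes, and its SD among mutants exceeded that of 70.3%.

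The array names carry 2 dates. In the larger, with 3 mutant and 3 control pools, the difference was 0.89 (SE 0.22). The smaller held mutant pool 1 and control pool 2, which differed by 0.76, with no replicate. Leaving out single pools gave differences from 0.71 without control pool 1 to 0.97 without control pool 3. Arrays were also weighted by limma, lower where an array lay further from its genotype's means over tested probes. Control pools 1 and 2 then had weights of 0.305 and 0.161, and the difference was 0.65 (SE 0.16).

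**Figure D2:**
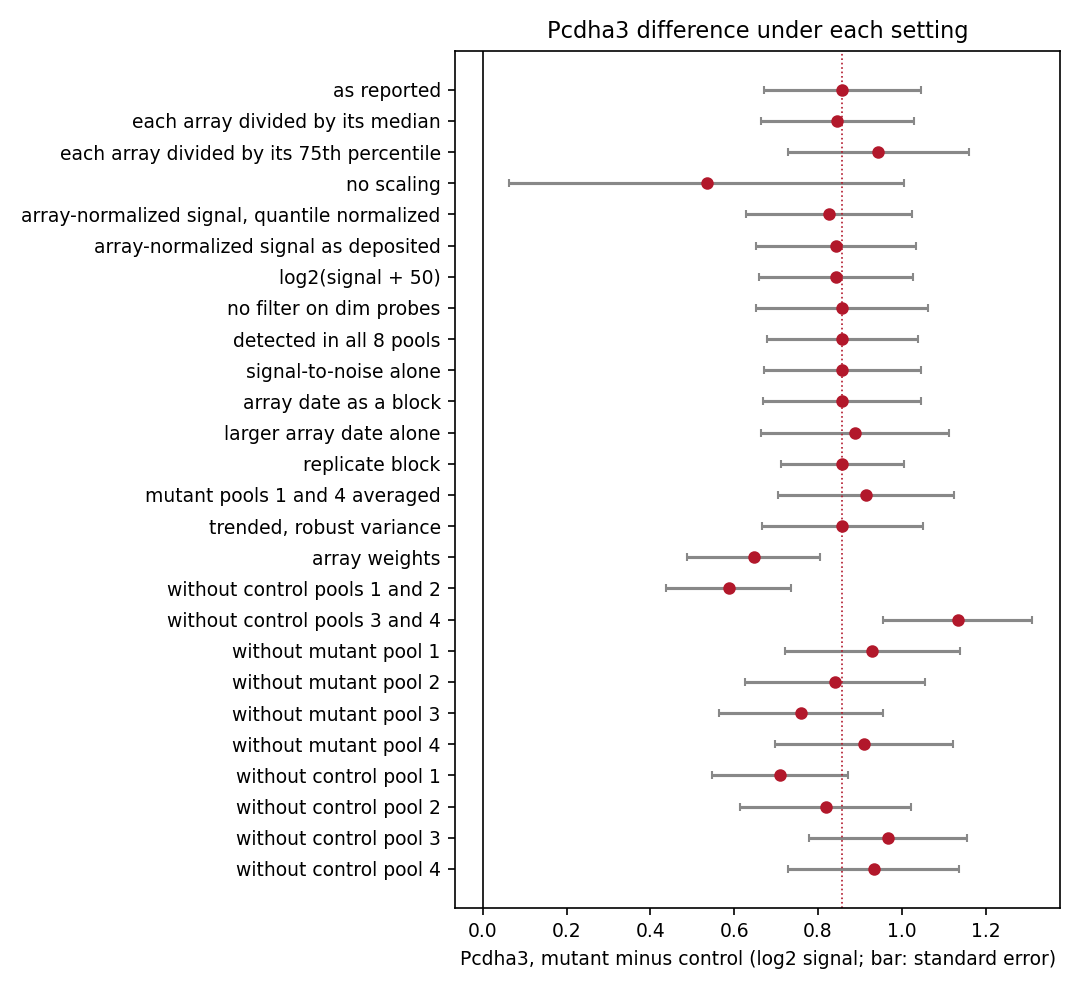
Difference of Pcdha3 in log2 signal, mutant minus control, under 26 settings (rows), with the reported setting on top and as a dotted line. Points are differences and bars standard errors. All points lie above 0, between 0.53 with no scaling between arrays and 1.13 without control pools 3 and 4, and the settings share most of their pools. With no scaling the standard error, 0.47, was the same for Pcdha3 and for each of the 5 tested list genes, so that bar is not the spread of Pcdha3.

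The other clustered protocadherins were almost unmeasured here. Of the 59 alpha, beta and gamma genes looked up, a probe was matched to 2, Pcdha3 and Pcdhb1. Pcdhb1, a beta-cluster member whose coding sequence lies in a single exon, had a negative signal-to-noise score on all 8 arrays. The score was -0.48, -0.46, -1.35 and -0.4 in mutant pools 1 to 4 and -1.35, -2.27, -1.33 and -0.72 in control pools 1 to 4. Its probe was thus not above background in either genotype, was not tested, and gives no fold. The 57 other cadherins and protocadherins, the 20 genes reported to act on the clustered locus, such as Ctcf, and the 16 partners of protocadherin-alpha proteins had no matched probe and are not analysed here.

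Because protocadherins are best known from neurons, genes of neurons and the neural tube were set beside Pcdha3. Of 34 such genes, 5 were matched to a probe. Snap25, a synaptic vesicle fusion protein, was detected in 0 of 4 mutant and 0 of 4 control pools, with signal-to-noise scores from -1.88 to 0.19 and from -1.85 to 0.67. The transcription factors Lhx2 and Sox3 were each detected in 0 of 4 mutant pools and in control pool 1 alone among controls. None of the 17 genes of neural crest and of enteric or sympathetic precursors was matched.

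Sox11 and Pou3f3, transcription factors of neural progenitors that other embryonic tissues also express, were the 2 neural-list genes with enough signal to test. Sox11 had log2 signals of 16.72, 16.21, 16.63 and 16.80 in mutant pools 1 to 4, against 16.93, 16.69, 16.52 and 16.52 in control pools 1 to 4. The groups overlapped, and the difference was -0.08 (SE 0.16, limma's adjusted p = 0.821). It lay slightly above 0, at 0.067, without control pools 1 and 2, at 0.0495 without mutant pool 2, at 0.0095 without control pool 1 and at 0.049 with array weights. Pou3f3 had log2 signals of 9.999, 9.52, 10.71 and 10.23 in mutant pools 1 to 4, against 11.06, 10.88, 10.28 and 9.96 in control pools 1 to 4. These groups overlapped too. The Pou3f3 difference was -0.43 (SE 0.31, adjusted p = 0.492 by limma), and -0.0069 without control pools 1 and 2. Of the 5 matched neural-list genes, 2 were thus detected in most or all pools, 2 in control pool 1 and 1 in none, and the part of neural cells in the Pcdha3 signal was not tested.

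**Figure D3:**
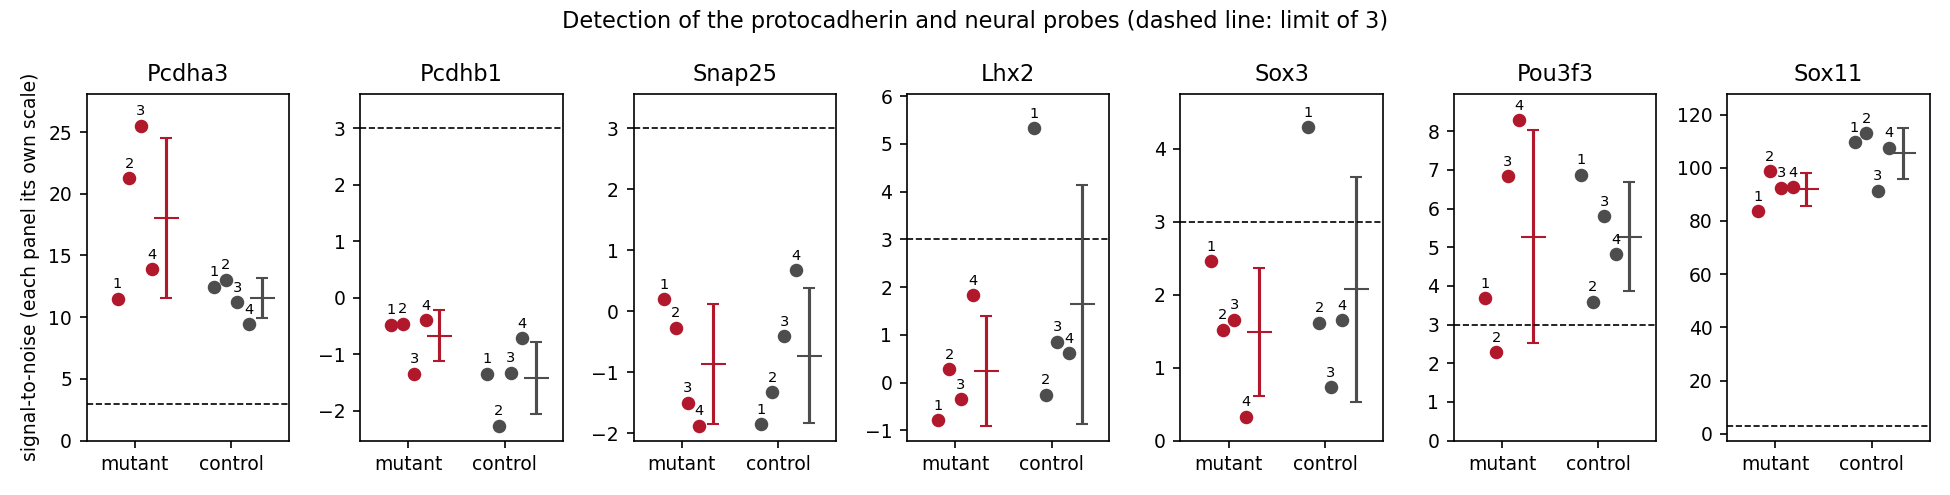
Signal-to-noise of Pcdha3, Pcdhb1 and the 5 matched neural-list genes in 4 Wt1 mutant pools (red, left in each panel) and 4 control pools (grey, right), each panel on its own scale, with the detection limit of 3 as a dashed line. Pcdha3 and Sox11 were above the limit in all 8 pools, Pcdhb1 and Snap25 in none, Lhx2 and Sox3 in control pool 1 only, and Pou3f3 in all but mutant pool 2.

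In all, 9 probes from the lists were matched besides Pcdha3 and 5 of them were tested. None of the 5 passed the threshold of 0.05 in limma's test adjusted over all tested probes, against 0.46% of the 17594. At an unadjusted p under the same threshold there were 3, of which 1 was higher and 2 lower in mutants, against 13.5% of all tested probes. The lists were chosen with earlier results of these data known, so this count does not show that list genes differ more often. The median difference of the 5 tested list probes was -0.43, against -0.06 over all tested probes. The 3 under the unadjusted threshold were Hba-a1, Ntn1 and Krt23. Krt23, a type I keratin from the epithelial list, was detected in 0 of 4 mutant and 4 of 4 control pools, and its plain difference of -1.72 (SE 0.32, limma's adjusted p = 0.0701) includes signals below detection. Krt23 entered the test only through the control pools, where it is high, so the filter favoured a difference and its p-values are no support for one. It passed the threshold without mutant pool 1, at -2.02 (limma's adjusted p = 0.0226), under the same limit.

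The genes whose signal followed that of Pcdha3 most closely over the 8 pools were found by Pearson's r of the log2 signals, given as a measure of likeness without a p-value. All points share their arrays, and control pools 1 and 2, which stand apart, weigh on every such r. Pcdha3 was selected on its difference between genotypes, so probes picked for a high or low r with it tend to differ too. The direction is that of Pcdha3 for a high r and the reverse for a low r. The differences, overlaps and p-values of these probes are therefore descriptions and no support for a change. Among the other 176 tested probes with a symbol, 2 had r over 0.9 and 3 had r under -0.9. Among all the other tested probes these numbers were 102 and 304, and the median r was -0.21.

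The highest r among genes with a symbol was that of Hba-a1, an alpha globin of red blood cells (r = 0.94, Spearman's rho = 0.95, 8 pools). Its log2 signal was 19.84, 20.00, 20.10 and 19.77 in mutant pools 1 to 4, against 18.08, 18.66, 19.40 and 19.64 in control pools 1 to 4. Mutant pool 3 was highest and control pool 1 lowest for both genes. The Hba-a1 groups did not overlap, as in 3% of tested probes in this direction. The Hba-a1 difference was 0.98 (SE 0.32, limma's adjusted p = 0.279) and 0.42 without control pools 1 and 2. The r with Pcdha3 was 0.90 without those pools, and 0.89 over the deviations from each genotype's mean. Hba-a1 was the only one of 13 red cell genes with a matched probe, so blood content rests on this probe alone and its part in the Pcdha3 signal was not tested.

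Next was Ccl21a, a chemokine that guides CCR7-bearing lymphocytes and dendritic cells (r = 0.93, rho = 0.93). Its log2 signal lay between 10.97 and 11.29 in mutant pools, against 10.10, 9.94, 10.69 and 10.52 in control pools 1 to 4. The Ccl21a groups did not overlap, which again held for 3% of tested probes in this direction. The Ccl21a difference was 0.77 (SE 0.18, limma's adjusted p = 0.146). Ccl21a has near-identical copies in the mouse genome, so its signal may not be its own. Over deviations from the genotype means its r with Pcdha3 was 0.72.

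Sult5a1, a member of the cytosolic sulfotransferase family, followed with r = 0.88 and rho = 0.86. It averaged 13.66 ± 0.14 in mutants and 13.23 ± 0.38 in controls (log2 signal, SD, n = 4 each), and its groups overlapped. Ramp3, which modifies the ligand choice of the calcitonin receptor-like receptor, was the last of the 4, with r = 0.87 and rho = 0.76. It averaged 12.21 ± 0.10 in mutants and 11.67 ± 0.38 in controls, also with overlap. In both genes control pools 1 and 2 had the 2 lowest signals, and r without these pools was 0.70 for Sult5a1 and 0.73 for Ramp3.

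At the other end stood Ntn1, which encodes netrin-1, a secreted cue that guides axons and other migrating cells (r = -0.97, rho = -0.95). Its log2 signal was 12.76, 12.58, 12.37 and 12.78 in mutant pools 1 to 4, against 13.93, 13.70, 13.51 and 13.16 in control pools 1 to 4. Every mutant pool lay below every control pool, as in 7.62% of tested probes. Mutant pool 3 was lowest and control pool 1 highest, the reverse of Pcdha3. The Ntn1 difference was -0.95 (SE 0.18, limma's adjusted p = 0.0822), and it passed the threshold without control pool 4, at -1.09 (limma's adjusted p = 0.0415). Its r with Pcdha3 was -0.92 without control pools 1 and 2 and -0.86 over deviations from the genotype means. Ntn1 was also the only one of the 73 axon guidance and neuronal recognition genes with a matched probe.

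Psme3, a nuclear proteasome activator subunit, had the next lowest value (r = -0.94, rho = -0.86). It averaged 16.62 ± 0.08 in mutants and 17.12 ± 0.25 in controls (log2 signal, SD, n = 4 each), without overlap. The same held, with mutants below controls, for 7.62% of tested probes. The Psme3 difference was -0.50 (SE 0.14, limma's adjusted p = 0.219), and its r was -0.80 without control pools 1 and 2.

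**Figure D4:**
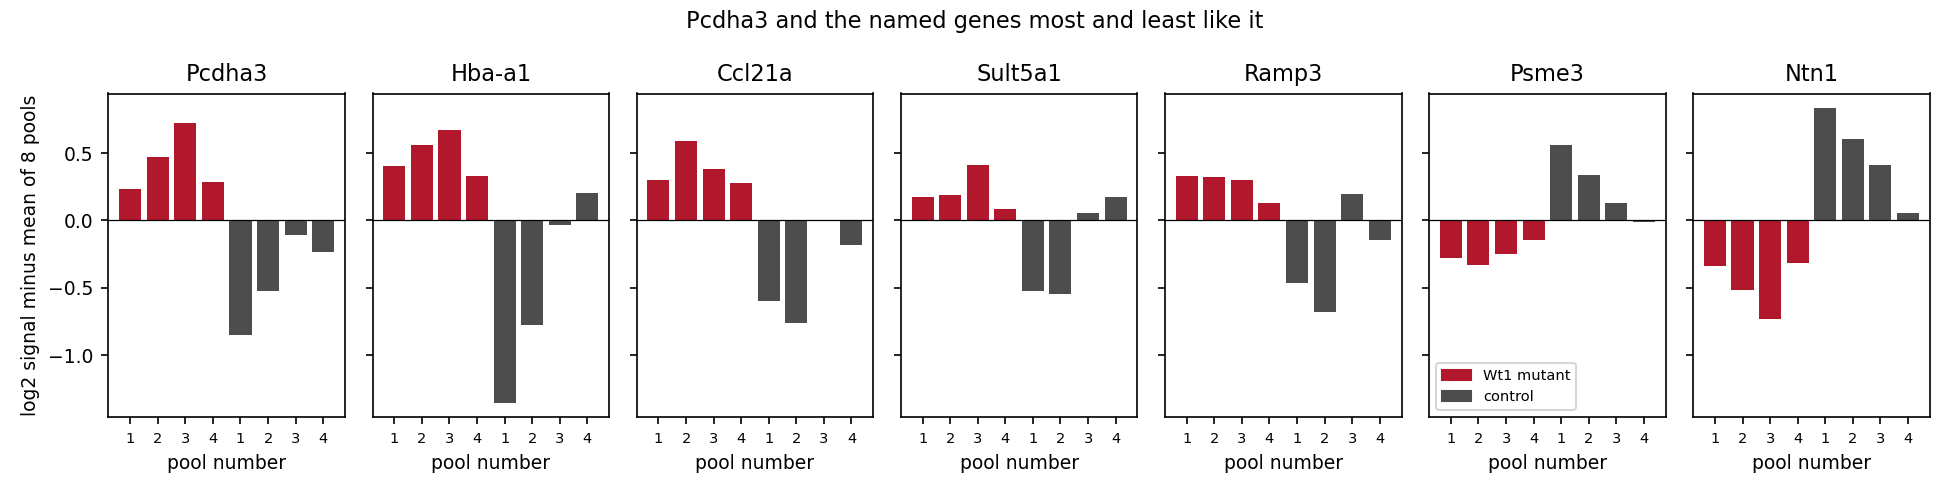
Log2 signal of Pcdha3, the 4 named genes most like it (Hba-a1, Ccl21a, Sult5a1, Ramp3) and the 2 least like it (Psme3, Ntn1) in each pool, as the deviation from the gene's mean over 8 pools (bars from 0; red, Wt1 mutant pools 1 to 4, left; grey, control pools 1 to 4, right). Control pools 1 and 2 have the lowest bars for the first 5 genes and the highest for the last 2.

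Among the 17417 tested probes without a symbol, mCG145595 (r = 0.98) and mCG141416 (r = 0.97) were most like Pcdha3. For mCG145595, detected in all 8 pools, the order of the pools was that of Pcdha3 (rho = 1). The log2 signal of mCG145595 was 14.64, 14.77, 14.82 and 14.74 in mutant pools 1 to 4, against 14.24, 14.28, 14.54 and 14.49 in control pools 1 to 4. It spanned a narrower range than Pcdha3, its difference being 0.35 (SE 0.11, adjusted p = 0.271 by limma). The probe mCG141416 was detected in 3 of 4 mutant and 2 of 4 control pools and entered the test only through the mutants. Its r and its difference of 0.91 (SE 0.24, limma's adjusted p = 0.203) include signals below detection, so its order of pools is not given. No gene is paired with either identifier in the files.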

How the data were processed

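Per the labels' protocols, RNA was amplified, labelled with digoxigenin-UTP and hybridised to one-colour arrays. Per the file headers, each array's deposited columns are signal, signal-to-noise, flag and array-normalized signal. The first is a linear intensity as deposited, lowest at 22.6 to 59.6 per array, and was taken as background corrected, which no source states. The deposited array-normalized signal equals the table of the whole series in 264096 of 264096 cells (tolerance 1e-09). The deposited signal-to-noise score and, as another deposited column, the flag served to filter probes and did not enter the fit. Both are also given above to describe detection. The sources used here give neither reader software nor flag meanings.

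Quantile normalization over all probes was done on log2 of the deposited signal, which was fitted with limma 3.58.1 in R 4.3.3 (two-sided, Benjamini-Hochberg adjusted, threshold 0.05), which was first tested on simulated data. The share of probes detected ran from 52.6% to 59.5% over the arrays, whose number limits precision. Symbols came only from the RefSeq table of GRCm38.p6, through unversioned transcript accessions or synonyms, for 316 probes of 310 genes. The gene, the 15 lists (352 genes) and the settings were chosen with earlier results of these data known. Named are list genes with a matched probe, the 4 most and 2 least like Pcdha3, and 2 probes without a symbol. When pools were left out, the rest were normalized and filtered again, and a group of 3 or fewer needed detection in all. Other settings changed scaling, values, pseudocount, filter, variance model, weights or blocks.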

Additional observations from a re-analysis of the deposited data

Results flagged for a closer look

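The log2 signal of Ramp3 was 12.07 in mutant pool 4 and 12.24 to 12.27 in mutant pools 1 to 3. It was the only value far from the rest of its group in 32 groups of 4 pools that were checked, where chance gives about 5% of groups. No Pcdha3 value stood apart in this way.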

How the results depend on the processing

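The Pcdha3 difference was above 0 under all 25 alternatives, from 0.53 to 1.13, and moved by less than the pooled SD under 24. The exception was the deposited signal with no scaling between arrays, at 0.53, where all tested probes had a median difference of -0.43. Dividing by the median or the 75th percentile put that median at -0.12 and -0.02 and the Pcdha3 difference at 0.85 and 0.94. Leaving out 1 pool gave 0.71 to 0.97. The difference was 0.59 without control pools 1 and 2 and 1.13 without control pools 3 and 4. Settings that changed only the filter, the block or the variance model left it at 0.86 by design. The probe was chosen for mutant pools above control pools, so the sign on leaving out pools was largely fixed in advance and is no support.

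The count of 81 called probes became 48 with no scaling, 30 with no filter, 42 within the larger array date, 36 with mutant pools 1 and 4 averaged, 285 with array weights, 129 when control pools 1 and 2 were dropped, 4487 when control pools 3 and 4 were, and 41 to 84 with 1 pool left out. Fewer samples or more tested probes are built into several of these, and the cause was otherwise not tested.

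Of the 5 tested list genes, 1 passed with no scaling, within the larger date and without mutant pool 1 (Krt23), and 1 without control pool 4 or when the variance was trended and robust (Ntn1). With no scaling the standard error was 0.47 for each of the 5, so these genes were ranked there by the size of their difference alone. Without control pools 3 and 4 there were 3 (Krt23, Ntn1 and Hba-a1). Leaving out 1 pool gave 0 to 1. Krt23 was tested only through the controls, where it was detected. The Sox11 difference changed sign with array weights (0.049) and on dropping both control pools 1 and 2 (0.067), mutant pool 2 (0.0495) or control pool 1 (0.0095), and ran from -0.146 to 0.0495 with 1 pool left out.

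With the replicate number as a block, the Pcdha3 difference stayed at 0.86 (SE 0.15), the called probes numbered 30 and 1 list gene passed (Krt23, limma's adjusted p = 0.0424). Krt23 entered this test too only through the controls, where it is high, so its p-value is no support for a difference. The deviations of same-numbered pools correlated at -0.09, 0.18, 0.00 and 0.08 over tested probes, and 1 of 4 mutant pools correlated best with its own number, so the numbers are not taken to pair the pools.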
